A study of Mus musculus with 2 samples.

Results

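The cells described here were the mononuclear phagocytes of B16 tumors in which 4 inflammatory genes, Il1b, Cxcl1, Cxcl2 and Ptgs2, together took the largest share of the cell's RNA. Cells of 2 single-cell libraries were pooled, cells with 200 to 7000 genes and at most 30% mitochondrial transcripts were kept, and the top 5% by the summed share of the 4 genes among the cell's unique molecular identifiers (UMIs, 1 for each captured RNA molecule) were taken as members. Members were thus chosen by the measured UMIs of these genes. This gave 718 members of 14351 cells, 248 of 6352 Fcmr+/+ cells and 470 of 7999 Fcmr-/- cells. The score ran without a gap from the members into the other cells. The lowest member had 243 of its 10851 UMIs on the 4 genes and the first cell outside had 176 of 7863. Within 10% of the lowest member's score lay 144 members above and 207 other cells below, so the members are cut from a range of scores, and whether they form a cell type of their own was not tested. Because the 4 genes chose the cells, their own levels are a description.

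Both libraries came from C57Bl/6 mice bearing B16 melanoma, a transplanted tumor line, resected at 500 to 1000 mm3. Mice of one library were wild type at Fcmr, which encodes a receptor for IgM, and mice of the other lacked Fcmr in the germline, in every cell type. MerTk+ CD64+ cells were sorted from digested tumors and captured in droplets, and the number and age of the mice behind each library are not given in the sources used here. Each genotype had 1 library, so variation among mice could not be estimated and no test was made, and a difference between the libraries cannot be told apart from one between the genotypes. Totals over the cells kept were 128408544 UMIs in Fcmr+/+ and 124630621 in Fcmr-/-, of which the members held 2915062 and 4361422. Fcmr had no UMI in any member, which at 3 counts over the group allows up to 1.03 CPM (UMIs of a gene per 1000000 UMIs of the group) in Fcmr+/+ and 0.688 CPM in Fcmr-/- members, and its 0.0558 and 0.0499 CPM in the remaining cells were too few to check the genotypes.

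Il1b encodes interleukin-1 beta, a cytokine made as an inactive precursor that inflammasome-activated caspase-1 cleaves. Cxcl1 and Cxcl2 encode chemokines that draw neutrophils through the receptor CXCR2, and Ptgs2 encodes cyclooxygenase-2, which makes the precursor of the prostaglandins. In macrophages all of them are induced rapidly by Toll-like receptor ligands, interleukin-1 or tumor necrosis factor, largely through the transcription factor NF-kB, and their short-lived mRNAs are cleared with the help of inhibitors that the same signals induce.

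In GRCm38 the neutrophil chemokine genes lie together on the plus strand of chromosome 5, Cxcl3 (ENSMUSG00000029379) from 90786103 to 90789600, Cxcl1 (ENSMUSG00000029380) from 90891241 to 90893115 and Cxcl2 (ENSMUSG00000058427) from 90903871 to 90905938. On the minus strand of chromosome 2 lies Il1b (ENSMUSG00000027398) from 129364570 to 129371139, and on the plus strand of chromosome 1 Ptgs2 (ENSMUSG00000032487) from 150100031 to 150108227. The sequences just upstream of these 5 genes are shown because Cxcl3, which was not in the score, had the highest ratio of members to remaining cells, without depth weighting, among genes with at least 50 CPM, as described below, and its upstream sequence shares letters with those of Cxcl1 and Cxcl2. Sequences are RefSeq's, in GRCm38.p6, written 5′ to 3′ on the strand of the gene. The 120 bases before the RefSeq start were searched on both strands for GGAATTTCC, letters of an NF-kB type site, and for TATAAA, the letters of a TATA box. Capitals mark the matches, and bases inside the annotated gene are left out.
Cxcl1, chr5:90891125-90891240, plus strand: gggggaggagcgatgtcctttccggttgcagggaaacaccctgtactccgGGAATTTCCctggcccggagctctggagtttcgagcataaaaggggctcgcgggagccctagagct
Cxcl2, chr5:90903779-90903870, plus strand: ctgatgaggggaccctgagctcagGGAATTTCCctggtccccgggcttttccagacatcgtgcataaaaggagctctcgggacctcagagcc
Cxcl3, chr5:90785981-90786100, plus strand: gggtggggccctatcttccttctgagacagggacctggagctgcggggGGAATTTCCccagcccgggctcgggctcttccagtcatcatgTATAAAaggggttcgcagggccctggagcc
Il1b, chr2:129371140-129371259, minus strand: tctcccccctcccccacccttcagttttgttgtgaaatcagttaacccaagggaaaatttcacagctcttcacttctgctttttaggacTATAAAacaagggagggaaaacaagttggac
Ptgs2, chr1:150099911-150100030, plus strand: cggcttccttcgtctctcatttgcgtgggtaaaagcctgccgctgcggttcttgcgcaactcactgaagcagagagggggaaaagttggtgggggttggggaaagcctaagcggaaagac

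GGAATTTCC began at base -70 from the RefSeq start of Cxcl1, at -96 in Cxcl2 and at -72 in Cxcl3, and these letters were not in the windows of Il1b and Ptgs2. TATAAA was in the windows of Cxcl3 and Il1b, and nowhere in these windows did the motifs overlap. Of 27025 genes with a window of this length, 46 held GGAATTTCC (0.170%) and 2013 held TATAAA (7.45%). Of the 6649 with a window among the genes counted in both libraries, 15 (0.226%) and 212 (3.19%) did. Among the 123 genes with a window of the 172 at least 2-fold higher in members of both libraries, as defined below, 2 held GGAATTTCC (1.63%), Cxcl3 and Nfkbia, and 17 held TATAAA (13.8%). Among the 337 with a window of the 422 genes at least 2-fold lower the shares were 0.297% and 3.26%. A match is a run of letters and was not tested as a binding site.

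The members had less RNA captured per cell than the other cells in both libraries. The median member had 10519.5 UMIs and 2554.5 genes in Fcmr+/+, against 18385 UMIs and 3805 genes in the remaining Fcmr+/+ cells. In Fcmr-/- the medians were 8361.5 UMIs and 2307.5 genes in members and 13389 UMIs and 3238 genes in the remaining cells. Mitochondrial genes took 4.12% of the median member's UMIs in Fcmr+/+ and 3.18% in Fcmr-/-, below the 4.72% and 4.14% of the remaining cells. Members were thus the shallower cells of each library. Values called depth-weighted below were recomputed with the remaining cells of each library weighted to the members' distribution of UMIs per cell, and shares of members were also computed within quartiles of depth and after thinning. Thinning every cell to 5000 UMIs gave 152 genes higher and 377 lower in both libraries, where all UMIs gave 172 and 422, as defined below.

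Members made up 3.90% (3.44 to 4.41) of the Fcmr+/+ cells and 5.88% (5.37 to 6.41) of the Fcmr-/- cells, where brackets hold exact 95% binomial intervals that cover counting error only. Put the other way, 65.5% (61.9 to 68.9) of the members were Fcmr-/- cells, while Fcmr-/- cells were 55.7% of all cells kept. The difference between the libraries was not the same at every depth. Among cells in the lowest quartile of UMIs, up to 9672, 9.60% (7.90 to 11.5) of Fcmr+/+ cells and 12.2% (10.9 to 13.5) of Fcmr-/- cells were members. In the second quartile the shares were 7.01% (5.73 to 8.48) and 6.03% (5.07 to 7.11), and in the third 2.23% (1.59 to 3.04) and 1.52% (1.01 to 2.19). In the quartile with the most UMIs 8 of 2133 Fcmr+/+ and 4 of 1456 Fcmr-/- cells were members. The Fcmr-/- share was above the Fcmr+/+ share in the lowest quartile alone, where the intervals overlapped, and that quartile held 2514 Fcmr-/- cells and 1073 Fcmr+/+ cells. When every cell was thinned to 5000 UMIs before scoring, which left out no cell, the shares were 4.06% (3.59 to 4.58) and 5.75% (5.25 to 6.28).

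**Figure D1:**
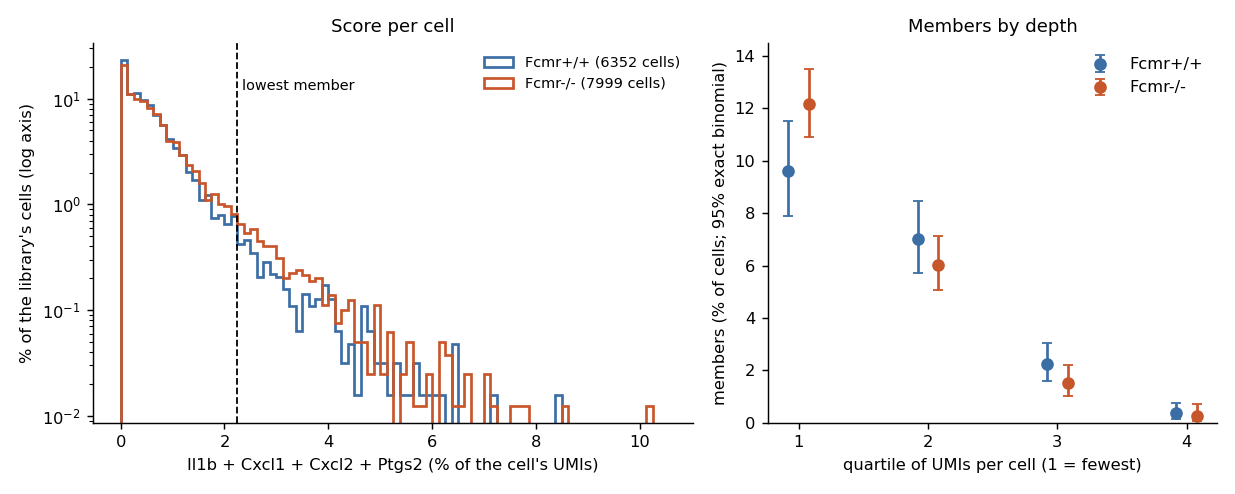
Left, percent of each library's cells (log axis) by the share of UMIs on the 4 genes, with the lowest member as a dashed line; right, members as a percent of cells in each quartile of UMIs per cell, with exact 95% binomial intervals. The score falls off without a gap at the line, and the share of members falls from 9.60% and 12.2% in the lowest quartile to 0.375% and 0.275% in the highest.

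Cxcl2 carried most of the score. It took 58.6% of the members' UMIs on the 4 genes in Fcmr+/+ and 55.4% in Fcmr-/-, and Il1b took 30.8% and 31.1%. Cxcl2 was the gene with the most UMIs of the 4 in 196 Fcmr+/+ and 385 Fcmr-/- members, Il1b in 52 and 83, Cxcl1 in 0 and 2, and Ptgs2 in none. Members led by Cxcl2 were therefore the majority in both libraries.

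Levels in CPM are sums over the cells of a group, with exact 95% Poisson intervals in brackets for counting error. Il1b stood at 9735 CPM (9622 to 9849) in Fcmr+/+ members and 1457 in the remaining cells, and at 10106 CPM (10012 to 10201) and 1657 in Fcmr-/-. Cxcl2 stood at 18507 CPM (18351 to 18664) and 3124 in Fcmr+/+ and at 18046 CPM (17920.3 to 18173) and 2926 in Fcmr-/-. Cxcl1 had 1917 CPM against 447 in Fcmr+/+ and 2288 CPM against 391 in Fcmr-/-. These levels follow from the choice of cells, and those of Il1b and Cxcl2 were close in the members of the libraries. Ptgs2 had 1439 CPM against 198 in Fcmr+/+ and 2107 CPM against 362 in Fcmr-/-, so that its Fcmr-/- level was the higher one in members and remaining cells. Single members spread widely in both chemokine genes. The 10th and 90th percentiles over members were 0 and 5441 CPM for Cxcl1 and 9099 and 31841 CPM for Cxcl2 in Fcmr+/+.

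Each of the 718 members had at least 5 UMIs over 10 macrophage markers, and the genes of the sort were present. Every kept cell came from the MerTk+ CD64+ sort and had at least 5156 UMIs, so this minimum was easily met. The remaining cells were not counted for it, so it does not set the members apart. Fcgr1, which encodes the sorted CD64, had 415 CPM against 247 in Fcmr+/+ and 589 CPM against 387 in Fcmr-/-, members before remaining cells as in all pairs that follow. Mertk, the other sorted marker, had 42.5 CPM against 63.3 in Fcmr+/+ and 30.04 CPM against 49.4 in Fcmr-/-, lower in members. Itgam, which encodes CD11b, had log2 ratios of 0.81 and 0.58, and Adgre1, which encodes F4/80, of -0.71 and -0.81, in Fcmr+/+ and Fcmr-/-. The macrophage list summed to 12144 CPM in Fcmr+/+ members against 17308, and to 8692 CPM in Fcmr-/- members against 15381. Its most abundant gene was Apoe, a lipid transport protein gene, at 5876 and 3538 CPM in members, and none of the 10 was at 0.

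Markers of other cell types were then summed. Of 12 neutrophil markers, S100a9, Retnlg, Ly6g, Camp and Ngp had no UMI in any member. For S100a9 this depended on the choice of cells, its log2 ratio of -2.17 in Fcmr-/- being 0.17 without Il1b in the score and 0.21 without Ptgs2. S100a8 was higher in members, with 22.3 CPM against 13.8 in Fcmr+/+ and 39.7 CPM against 18.9 in Fcmr-/-. The list summed to 115 CPM in Fcmr+/+ members against 59.5 and to 312 CPM in Fcmr-/- members against 122. Most of that sum was Mmp8, which encodes neutrophil collagenase, with 60.4 CPM against 23.95 in Fcmr+/+ and 234 CPM against 68.3 in Fcmr-/-, and 209 of 718 members had at least 3 UMIs on the list, beside 2677 of all 14351 cells. Of 4 markers of that list counted in both libraries, Mmp8 and Hdc, the histidine decarboxylase gene, were at least 2-fold higher in both, beside 2.02% of all counted genes. Hdc passed the minimum of 5 CPM in Fcmr+/+ through the members alone (13.4 CPM against 4.02). The Mmp8 log2 ratio of 1.30 in Fcmr+/+ was -0.22 without cells with neutrophil UMIs, a set that Mmp8 helped to choose. Dendritic cell markers summed to 5.49 and 0.688 CPM in members, with 6 of 10 at 0 and Cd209a the most abundant, and T and NK cell markers to 0.343 and 1.15 CPM, on 1 UMI of Klrb1c in Fcmr+/+ and at most 2 UMIs of any gene in Fcmr-/-, with Cd3e and Cd3g at 0. B cell markers summed to 5.83 and 2.98 CPM, all of it Cd79b, and fibroblast markers to 3.09 and 3.44 CPM, led by Pdgfrb, with 4 of 6 at 0. Endothelial markers summed to 10.3 CPM in Fcmr+/+ and 25.7 CPM in Fcmr-/- members, against 6.98 and 12.3 CPM in the remaining cells, led by Pecam1 in Fcmr+/+ members (6.52 CPM) and by Kdr and Pecam1 in Fcmr-/- members (11.2 and 11.0 CPM), with Cldn5 and Emcn at 0. Melanoma markers summed to 71.4 and 88.5 CPM in members and 78.2 and 109 CPM in the remaining cells, led by Mitf, and the 6 mast cell and basophil markers were all at 0 in members. Beyond leaving out cells with such UMIs, their part in the results was not tested. Between the libraries 73 barcodes were shared, 11 members carried 1 of them, and 1 barcode was a member in both.

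Across all genes, more were lower than higher in members. A gene was counted where it had at least 5 CPM in members or remaining cells, a difference was called from 2-fold on (a log2 ratio of 1 after adding 1 CPM), and the 4 score genes were left out. In Fcmr+/+, 268 of 8718 genes (3.07%) were at least 2-fold higher in members and 706 (8.1%) at least 2-fold lower. In Fcmr-/-, 250 of 8711 genes (2.87%) were higher and 735 (8.44%) lower. In both libraries at once, 172 of 8530 genes (2.02%) were higher and 422 (4.95%) lower. Either group could meet the minimum, so the higher genes include some that met it through the members alone, such as Il23a. At a minimum of 20 CPM 136 were higher and 163 lower. The median log2 ratio over all counted genes was -0.26 in Fcmr+/+ and -0.27 in Fcmr-/-, and the list medians below are to be read against these. In the same way, the number of a list's genes called in both libraries is to be read against 2.02% higher and 4.95% lower. Each list median is taken over the genes counted in that library, while the number of a list's genes that reached 5 CPM is of those counted in both. Centred on those medians, 311 genes were higher and 265 lower in both libraries, so that higher genes went from 29.0% to 54.0% of the calls. Depth-weighted, 102 genes were higher and 180 lower, of which 101 and 169 were also called without weights.

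The gene with the highest ratio without depth weighting was Cxcl3, another chemokine gene of the cluster on chromosome 5, among genes with at least 50 CPM. It had 1085 CPM (1048 to 1124) in Fcmr+/+ members and 87.2 CPM in the remaining cells, and 1917 CPM (1876 to 1958) and 161 CPM in Fcmr-/-. Its log2 ratios of 3.62 and 3.56 were 3.09 and 3.02 depth-weighted, under those of Il6, the gene of interleukin-6, at 3.25 and 3.55. Ppbp, which encodes a further CXC chemokine of neutrophils, had 299 CPM against 47.3 in Fcmr+/+ and 109 CPM against 30.9 in Fcmr-/-. Of 6 neutrophil chemokine and receptor genes outside the score, these were the 2 that reached 5 CPM, and both were at least 2-fold higher in both libraries. Ppbp had UMIs in 47 of 248 Fcmr+/+ and 56 of 470 Fcmr-/- members. In each library 1 member held a large part of them, 184 of 871 in Fcmr+/+ and 134 of 474 in Fcmr-/-. Cxcl5 stood at 1.37 and 3.67 CPM in members and Cxcr2, the receptor gene of these chemokines, at 0.686 and 0.229 CPM, and Cxcr1 and Cxcl15 had no UMI in members.

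Il1a, the gene of interleukin-1 alpha, was also high where Il1b was, with 664 CPM against 136 in Fcmr+/+ and 988 CPM against 110.2 in Fcmr-/- and log2 ratios of 2.27 and 3.15. Il1rn, which encodes the antagonist that blocks the interleukin-1 receptor, had 676 CPM against 306 in Fcmr+/+ and 914 CPM against 391 in Fcmr-/-. The cytokine genes and the antagonist were thus high in the same group of cells, and whether they were high in the same single cells was not tested. The decoy receptor gene Il1r2 had 26.1 CPM against 11.9 in Fcmr+/+ and 10.8 CPM against 8.71 in Fcmr-/-. Il1rap, which encodes the accessory chain of the receptor, had log2 ratios of 0.33 and 0.37, Il18 of -0.34 and -0.54 and Il18bp, the gene of the interleukin-18 binding protein, of -0.81 and -0.77. Il1r1, Il33 and Il1rl1 were at or under 1.08 CPM in every group. Of 10 listed genes 9 were in the files and 6 reached 5 CPM, and 2 of them, Il1a and Il1rn, were at least 2-fold higher in both libraries.

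Among genes that process and release interleukin-1, Nlrp3 stood apart. Nlrp3, the sensor of an inflammasome, had 541 CPM (514 to 568) in Fcmr+/+ members against 194, and 523 CPM (502 to 545) in Fcmr-/- members against 154. The adaptor gene Pycard had log2 ratios of -0.02 and -0.41, Casp1, the gene of the converting enzyme, of -0.38 and -0.35, and Gsdmd, the gene of the pore through which interleukin-1 leaves the cell, of -0.06 and -0.10. Of 11 genes 10 reached 5 CPM, and Nlrp3 was the only one called in both libraries. The medians of the list were -0.05 and -0.22.

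In the prostaglandin pathway the terminal synthase genes went in different directions. Ptges, whose enzyme makes prostaglandin E2 from the product of cyclooxygenase-2, had 30.2 CPM (24.2 to 37.2) in Fcmr+/+ members against 3.55, and 39.9 CPM (34.2 to 46.3) in Fcmr-/- members against 5.43. Hpgds, whose enzyme makes prostaglandin D2 from the same precursor, had 28.1 CPM (22.4 to 34.9) against 132 and 23.2 CPM (18.9 to 28.1) against 116. Ptges was the only one of 14 listed genes at least 2-fold higher in both libraries and Hpgds the only one lower, among 10 that reached 5 CPM, Ptges in Fcmr+/+ through the members alone. Hpgd, whose enzyme inactivates prostaglandins, had no UMI in members and 2.59 and 1.66 CPM in the remaining cells. The other enzyme genes differed less. Ptges3 had log2 ratios of -0.39 and -0.36, Ptges2 of -0.93 and -0.43, Ptgds of -0.76 and -0.35, the thromboxane synthase gene Tbxas1 of 0.03 and -0.68 and the phospholipase gene Pla2g4a of 0.54 and 0.40. Ptgs1, the constitutive cyclooxygenase gene, had log2 ratios of 0.88 and -0.55, which differ in sign, on 10.3 and 2.52 CPM in members. The receptor genes Ptger2 and Ptger4 had log2 ratios of 0.18 and 0.27 and of 0.29 and 0.55, the transporter gene Abcc4 had 0.30 and -0.29, and Ptger3 and Slco2a1 were at or under 0.343 CPM in every group.

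Secreted cytokine genes were higher in members as a group. Of 18 inflammatory cytokine genes 13 reached 5 CPM, and 10 were at least 2-fold higher in both libraries. Among the 10 was Il23a, an interleukin subunit gene, with 9.26 CPM against 2.31 in Fcmr+/+ and 31.4 CPM against 1.06 in Fcmr-/-. Il23a reached 5 CPM through the members alone, so that its call is a description. The medians of the list, which include Il23a, were 1.55 and 1.86, and 1.46 and 1.74 depth-weighted. Those of Fcmr-/- also include Il27, which reached 5 CPM there through the members alone, at 7.80 CPM against 4.51. Il6 had 78.9 CPM (69.03 to 89.8) in Fcmr+/+ members against 10.9, and 73.8 CPM (65.98 to 82.3) in Fcmr-/- members against 5.90. Csf3, the gene of granulocyte colony-stimulating factor, had 72.4 CPM against 11.6 in Fcmr+/+ and 70.4 CPM against 7.15 in Fcmr-/-. Both reached similar levels in the members of each library. Inhba, which encodes the activin A subunit, did not, with 185 CPM (169 to 201) in Fcmr+/+ and 706 CPM (681 to 731) in Fcmr-/- members, against 22.5 and 67.6 CPM in the remaining cells. Its log2 ratios of 2.98 and 3.36 were 2.17 and 2.60 depth-weighted. Tnf, the gene of tumor necrosis factor, had 589 CPM against 251 in Fcmr+/+ and 666 CPM against 115 in Fcmr-/-, so its remaining cells differed more between the libraries than its members did. Il10, an anti-inflammatory cytokine gene, had 264 CPM against 113 in Fcmr+/+ and 115 CPM against 47.2 in Fcmr-/-, while Tgfb1 had log2 ratios of 0.11 and 0.01 and Ebi3, an interleukin subunit gene, of -0.33 and -0.44.

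In the NF-kB pathway the genes called in both libraries were an inhibitor of the factor, a relative of it and a cofactor. Nfkbia, which encodes the inhibitor I kappa B alpha and is itself a target of NF-kB, had 4363 CPM against 1595 in Fcmr+/+ and 4226 CPM against 1309 in Fcmr-/-. Nfkbiz, a nuclear cofactor gene, with log2 ratios of 1.13 and 1.40, and Nfkbie, another inhibitor gene, with 1.26 and 1.41, were the other genes called in both libraries, 3 of 16 in all. The list had 15 genes with a ratio above 0 in both libraries and medians of 0.76 and 0.87. Among the subunit genes Nfkb2 had log2 ratios of 1.19 and 0.64, Relb of 0.90 and 0.84, Nfkb1 of 0.98 and 1.12, Rel of 0.74 and 0.90 and Rela of 0.41 and 0.46. Of 20 further NF-kB target genes 9 were at least 2-fold higher in both libraries, 19 had a ratio above 0 in both, and medians were 1.07 and 1.04. Clec4e, which encodes the receptor Mincle, had 815 CPM against 198 in Fcmr+/+ and 977 CPM against 211 in Fcmr-/-, and Traf1, an adaptor gene of tumor necrosis factor receptors, had 184 CPM against 47.8 in Fcmr+/+ and 217 CPM against 49.4 in Fcmr-/-. The adhesion gene Icam1 had log2 ratios of 0.03 and 0.19. The 9 include Bcl2a1a and Bcl2a1d, near-identical copies between which the division of reads is uncertain. Of 21 Toll-like and interleukin-1 receptor signaling genes 20 were counted in both libraries. Only Cd14, which encodes the co-receptor of lipopolysaccharide, was called in both, with 3555 CPM against 1215 in Fcmr+/+ and 3951 CPM against 1252 in Fcmr-/-. That list's medians were 0.19 and 0.02.

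Genes whose products limit the response had ratios mostly above 0. Of 15 mRNA decay and MAP kinase phosphatase genes 4, Socs3, Dusp5, Btg1 and Dusp2, were at least 2-fold higher in both libraries, 14 had a ratio above 0 in both, and medians were 0.78 and 0.74. Socs3, an inhibitor gene of cytokine signaling, had 557 CPM against 180.4 in Fcmr+/+ and 517 CPM against 138 in Fcmr-/-. Zfp36, which encodes tristetraprolin, a protein that marks cytokine mRNAs for decay, had 1244 CPM against 724 in Fcmr+/+ and 1143 CPM against 756 in Fcmr-/-. Immediate-early and heat-shock genes, which tissue dissociation can induce, had medians of 0.42 and 0.19. Of 23 genes 22 were counted in both libraries. Egr2, an early growth response gene, was the only one called in both, 1 of 22 beside 2.02% of all counted genes. Its log2 ratios were 1.17 and 1.24, while Fos had 0.56 and -0.01 and Jun -0.19 and -0.63.

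**Figure D2:**
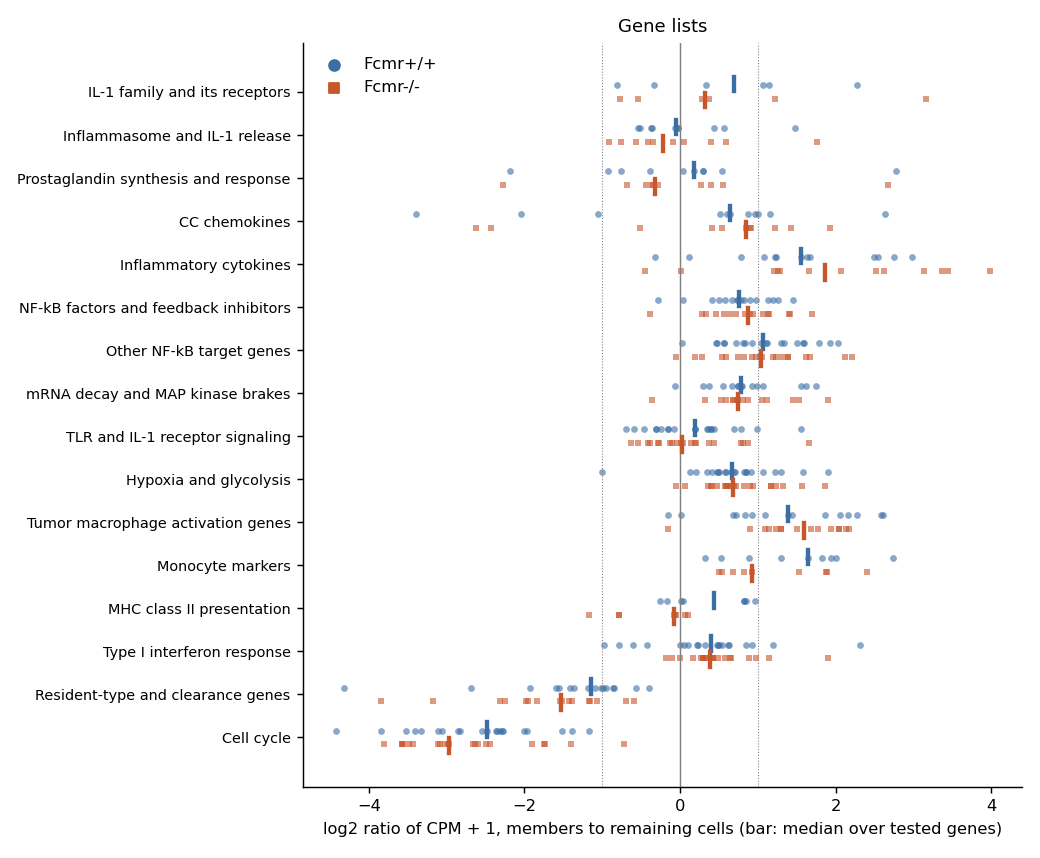
Log2 ratio of CPM plus 1, members to remaining cells, for each counted gene of the lists named at the left, circles for Fcmr+/+ and squares for Fcmr-/-, with list medians as bars and 2-fold as dotted lines. Inflammatory cytokine genes have medians of 1.55 and 1.86, right of the upper line, and cell cycle genes of -2.48 and -2.98, left of the lower one.

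Beyond the lists, Serpinb2, Areg and Slpi were among the genes nearest to Cxcl3. Serpinb2, which encodes an inhibitor of plasminogen activators, had 104 CPM against 10.8 in Fcmr+/+ and 63.5 CPM against 6.36 in Fcmr-/-. Areg, the gene of the growth factor amphiregulin, had 304 CPM against 35.3 in Fcmr+/+ and 325 CPM against 32.6 in Fcmr-/-. Slpi, the gene of a secreted inhibitor of leukocyte proteases, had 502 CPM against 47.9 in Fcmr+/+ and 438 CPM against 58.3 in Fcmr-/-, log2 ratios of 3.36 and 2.89 that were 2.48 and 2.14 depth-weighted. All of them were high in both libraries as sums over the group. Serpinb2 had UMIs in 26 of 248 Fcmr+/+ and 34 of 470 Fcmr-/- members, Areg in 54 and 92 and Slpi in 97 and 194. Others of the 20 highest, among genes with at least 50 CPM in the higher group of each library, were Inhba, Il6, Csf3, Lif, Vcan, Mir155hg, Il1a, Nos2, Atp2b4, Thbs1, Irg1, Clec4e, Flrt3, F10 and Traf1, each with a log2 ratio of at least 1.92 in both libraries. Mir155hg, the host transcript of the inflammation-induced microRNA 155, had 69.98 CPM against 12.96 in Fcmr+/+ and 89.6 CPM against 10.7 in Fcmr-/-.

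Metabolic enzyme genes of activated macrophages were among the high ones. Nos2, whose enzyme makes nitric oxide, had 51.8 CPM against 7.67 in Fcmr+/+ and 161 CPM against 36.03 in Fcmr-/-. Irg1, whose enzyme makes itaconate, had 106 CPM against 17.01 in Fcmr+/+ and 272 CPM against 65.6 in Fcmr-/-. Nos2 and Irg1 were higher in the Fcmr-/- library in members and in remaining cells alike. Of the 17 of 18 listed tumor macrophage activation genes that were in the files 8 were at least 2-fold higher in both libraries. Medians were 1.38 and 1.59, and 0.66 and 1.32 depth-weighted. The Fcmr-/- medians include Ereg, which reached 5 CPM through the members alone, at 11.0 CPM against 0.466. Its 48 UMIs lay in 6 of 470 Fcmr-/- members, and Fcmr+/+ members had none. Thbs1, the gene of thrombospondin 1, had 3712 CPM against 829.5 in Fcmr+/+ and 4225 CPM against 1023 in Fcmr-/-, and its log2 ratios of 2.16 and 2.05 were 1.43 and 1.34 depth-weighted. Spp1, the gene of osteopontin, had 5039 CPM against 2665 in Fcmr+/+ and 13400 CPM against 4715 in Fcmr-/-, and Hmox1, the heme oxygenase gene, had log2 ratios of -0.16 and -0.16.

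Hypoxia and glycolysis genes had ratios above 0 with few exceptions. Of 22 genes 20 had a ratio above 0 in both libraries and 5 were at least 2-fold higher in both, namely Egln3, Ero1l, Hilpda, Slc2a1 and Ndrg1. The medians were 0.67 and 0.67, and 0.42 and 0.47 depth-weighted. Egln3, an oxygen-sensing hydroxylase gene, had 188 CPM against 49.8 in Fcmr+/+ and 181 CPM against 49.4 in Fcmr-/-.

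Monocyte markers had ratios above 0 in both libraries. All 9 of the 10 markers that reached 5 CPM had a ratio above 0, and Vcan, Chil3, Hp and Fn1 were at least 2-fold higher in both libraries, with medians of 1.64 and 0.93. Vcan, the gene of the matrix proteoglycan versican, had 162 CPM against 23.5 in Fcmr+/+ and 147 CPM against 27.1 in Fcmr-/-. Chil3, which encodes the secreted Ym1, had 159 CPM against 38.8 in Fcmr+/+ and 212 CPM against 56.6 in Fcmr-/-. Ccr2, the receptor gene of Ccl2, had log2 ratios of 1.30 and 0.54, Plac8 of 1.64 and 0.50 and Ly6c2, which encodes Ly6C, of 0.32 and 0.82, and the difference between the libraries was not tested. CC chemokine genes were split. Ccl2, Ccl3 and Ccl24 were at least 2-fold higher in both libraries, Ccl8 and Ccl17 at least 2-fold lower, and medians over 11 genes were 0.64 and 0.84. Ccl24, which encodes eotaxin-2, had 388 CPM against 61.9 in Fcmr+/+ and 246 CPM against 64.2 in Fcmr-/-. Ccl8, another chemokine gene, had 154 CPM against 638 in Fcmr+/+ and 232 CPM against 1425 in Fcmr-/-.

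The genes that were low in members included those of resident-type macrophages. Of the 18 of 19 listed resident-type and clearance genes that were in the files 16 reached 5 CPM, all 16 of these had a ratio below 0 in both libraries and 10 were at least 2-fold lower in both. Medians were -1.14 and -1.53, and -0.95 and -1.30 depth-weighted. Gas6, which encodes a ligand that bridges MerTk to dying cells, had 40.8 CPM (33.8 to 48.9) in Fcmr+/+ members against 268, and 9.40 CPM (6.75 to 12.8) in Fcmr-/- members against 149. C1qa, which encodes a chain of complement C1q, had 1004 CPM against 2289 in Fcmr+/+ and 601 CPM against 2334 in Fcmr-/-, log2 ratios of -1.19 and -1.96 that were -0.96 and -1.55 depth-weighted, which in Fcmr+/+ is under 2-fold. Lyve1, an endocytic receptor gene, had 1 UMI in Fcmr+/+ members (0.00869 to 1.91 CPM) and 5 in Fcmr-/- members (0.372 to 2.68 CPM), against 25.9 and 18.5 CPM in the remaining cells. Sepp1, the gene of selenoprotein P, had 489.9 CPM against 1444 in Fcmr+/+ and 191 CPM against 912 in Fcmr-/-.

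Cell cycle genes had the lowest medians of the lists, -2.48 and -2.98, or -1.57 and -1.88 depth-weighted. All 21 had a ratio below 0 in both libraries and 20 were at least 2-fold lower in both. Birc5, the gene of the mitotic protein survivin, had 5.83 CPM against 77.4 in Fcmr+/+ and 4.81 CPM against 68.4 in Fcmr-/-, log2 ratios of -3.52 and -3.58 that were -2.45 and -2.47 depth-weighted. Top2a, the gene of topoisomerase II alpha, had 8.58 CPM against 67.00 in Fcmr+/+ and 5.73 CPM against 74.5 in Fcmr-/-, log2 ratios of -2.83 and -3.49 that were -1.58 and -2.28 depth-weighted. Pcna, whose product also serves DNA repair, was the exception, with log2 ratios of -1.17 and -0.73. Of the 12 lowest genes, Birc5, 2810417H13Rik, Stmn1, Ube2c, Top2a, Cks1b and Smc2 are linked to cell division, and Gas6, Cela1, Serpinb6a, Hpgds and Igfbp4 are others.

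**Figure D3:**
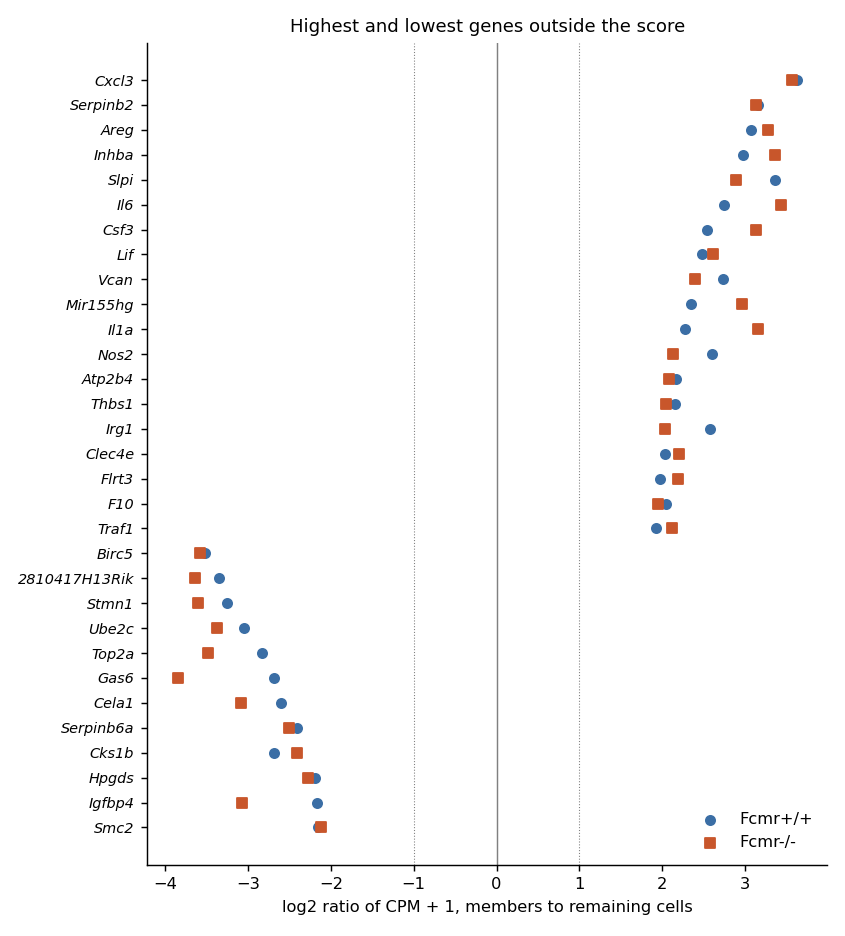
Log2 ratio of CPM plus 1, members to remaining cells, for the highest and lowest genes named in the text outside the score, circles for Fcmr+/+ and squares for Fcmr-/-, with 2-fold as dotted lines. Cxcl3 is at the top at 3.62 and 3.56, and every gene plotted lies beyond 2-fold on the same side in both libraries.

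Antigen presentation and interferon genes did not follow the score in a single direction. Of 10 MHC class II presentation genes 8 were counted in both libraries, and none of these was at least 2-fold higher or lower in both. Medians were 0.43 and -0.07, and 0.01 and -0.23 depth-weighted. With Cxcl2 left out of the score the Fcmr+/+ median was 1.36. H2-Ab1, a class II chain gene, had 1341 CPM against 757 in Fcmr+/+ and 1198 CPM against 1116 in Fcmr-/-. Cd74, the invariant chain gene, had 4378 CPM against 2246 in Fcmr+/+ and 3452 CPM against 3304 in Fcmr-/-. For both, the remaining cells differed more between the libraries than the members did. The type I interferon response genes, 20 of 22 counted in Fcmr+/+ and 22 in Fcmr-/-, had medians of 0.40 and 0.39, and 0.01 and -0.01 depth-weighted, and Ifi205 was the only one called in both libraries, with log2 ratios of 2.32 and 1.89. Type II interferon response genes had medians of -0.01 and -0.63. Cxcl9, a T cell chemokine gene of that list and its only call in both libraries, had 3 UMIs in Fcmr+/+ members (0.212 to 3.01 CPM) against 14.8 CPM, and 43.6 CPM in Fcmr-/- members against 191. Lipid-associated macrophage genes had medians of -0.49 and -0.31, and none of 13 was called in both libraries. Trem2, a lipid receptor gene, had log2 ratios of -0.90 and -0.73 and the tetraspanin gene Cd9 of 0.89 and 1.42.

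Along the score the levels of several genes went on changing outside the members. H2-Ab1 did not keep to 1 direction, at 1341, 1364 and 965 CPM in Fcmr+/+ and 1198, 1435 and 1472 CPM in Fcmr-/-, in members and in cells ranked from 5 to 10% and from 10 to 20%. Cells ranked from 5 to 10% by score were 276 Fcmr+/+ and 442 Fcmr-/- cells. In them Cxcl3 had 493 and 725 CPM, between the members and the 196 and 466 CPM of cells ranked from 10 to 20%. Il6 went from 78.9 and 73.8 CPM in members to 45.3 and 27.6 CPM in cells ranked from 5 to 10%, and had 0.748 and 0.876 CPM in those ranked from 80 to 100%. Both genes therefore kept falling among the cells outside the members. Nfkbia went down to 625 and 356 CPM at the end of the ranking. C1qa, C1qb and C1qc, summed, went the other way, from 3455 and 2179.6 CPM in members to 8361 and 9316 CPM from 80 to 100%. The cell cycle list summed to 168 and 155 CPM in members and 1024 and 1206 CPM from 80 to 100%. Depth moved along with the rank over the first 5 groups, from median UMIs of 10519.5 in Fcmr+/+ and 8361.5 in Fcmr-/- members up to 21670.5 and 15534 in cells ranked from 40 to 60%. From there it went down to 15366 and 13188 in cells ranked from 80 to 100%, and its part in these levels was not tested.

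**Figure D4:**
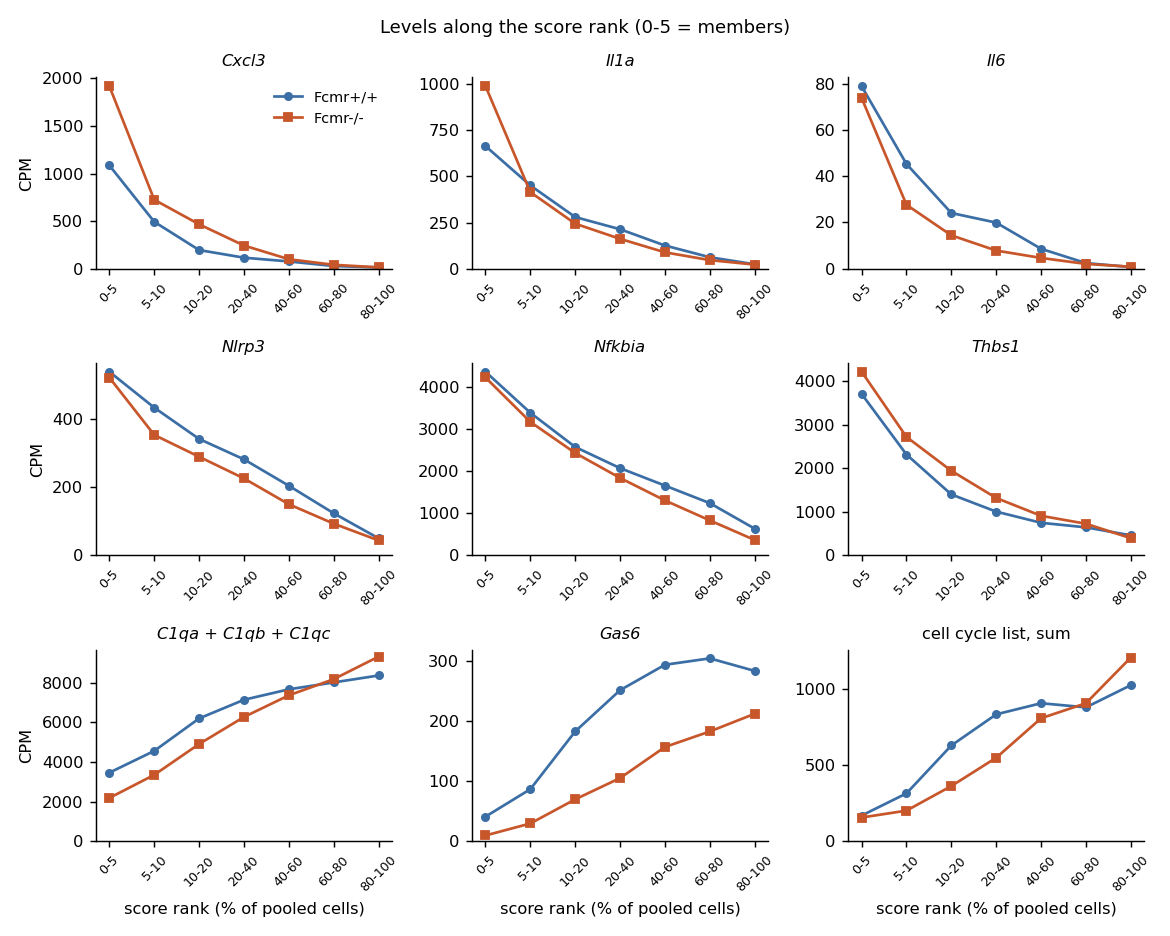
CPM of 7 single genes, of the 3 C1q genes summed and of the cell cycle list summed, on linear axes from 0, in 7 groups of cells by score rank, with the members at the left. Cxcl3, Il1a, Il6, Nlrp3, Nfkbia and Thbs1 fall from left to right in both libraries, and the C1q genes, Gas6 and the cell cycle sum are lowest in the members.

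Members led by Il1b and members led by Cxcl2 also differed in genes outside the score. Nlrp3 was higher in Il1b-led members, at 735 against 494 CPM in Fcmr+/+ and 690.1 against 490.5 CPM in Fcmr-/-. Ccr2 was too, at 444 against 283 CPM and 274 against 178 CPM. H2-Ab1 had 2544 against 1053 CPM and 1536 against 1137 CPM. All of these were higher in the Il1b-led members of both libraries, whereas the monocyte gene Ly6c2 was not, at 76.4 against 29.8 CPM and 102 against 202 CPM. Cxcl3 was lower in them, at 837 against 1144 CPM and 1394 against 2022 CPM. Ccl2 was lower as well, at 3109 against 4158 CPM and 4745 against 7152 CPM. Slpi turned around between the libraries, at 247 against 562 CPM and 731 against 383 CPM. The subsets were cut by genes of the score, and these values are a description.

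The genotypes were then compared within the members. Of 8226 genes counted, 122 (1.48%) were at least 2-fold higher in Fcmr-/- than in Fcmr+/+ members and 144 (1.75%) at least 2-fold lower. These counts depended on the processing, with 263 higher and 257 lower after thinning to 5000 UMIs, 306 and 257 for the top 2.5% of cells and 37 and 30 with 10 CPM added, so that the larger direction turned around. The same log2 ratio in the remaining cells is given after that of the members. The 8 highest and 8 lowest were taken from genes with at least 50 CPM in the members of either library. The 8 highest all had a ratio above 0 in the remaining cells also, which was smallest for Tnfrsf9. Below that limit Cxcl9 had 43.6 CPM in Fcmr-/- members and 3 UMIs (0.212 to 3.01 CPM) in Fcmr+/+ members. Ifnb1, the interferon beta gene, had 9.17 CPM in Fcmr-/- and 2 UMIs (0.0831 to 2.48 CPM) in Fcmr+/+ members, while the remaining Fcmr-/- cells were the lower ones, at 3.78 against 10.5 CPM. AW112010, an interferon-induced transcript, had 163 CPM in Fcmr-/- and 17.5 in Fcmr+/+ members, a log2 ratio of 3.14 against 2.54 in the remaining cells. Gbp2, which encodes an interferon-induced GTPase, had 2.28 against 2.65, and Ly6a, which encodes Sca-1, 2.12 against 3.47. Ly6c2 had 2.23 against 1.73, the uridine phosphorylase gene Upp1 2.02 against 2.36, Mmp8 1.93 against 1.47 and Inhba 1.93 against 1.54. Tnfrsf9, which encodes the receptor 4-1BB, had 94.01 CPM (85.1 to 104) in Fcmr-/- and 24.4 CPM (19.02 to 30.7) in Fcmr+/+ members, and 14.2 and 10.5 CPM in the remaining cells, ratios of 1.91 against 0.41. That difference of ratios was not tested, and the gene was chosen by its ratio in members. Tnfrsf9 had UMIs in 62 of 470 Fcmr-/- and 21 of 248 Fcmr+/+ members. Single Fcmr+/+ members held 12 of its 71 UMIs there, 11 of 44 for Gbp2 and 37 of 153 for Ly6a.

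Of the 8 lowest genes Mt2, a metallothionein gene, had 186 CPM in Fcmr-/- and 631 in Fcmr+/+ members, a log2 ratio of -1.75 against -1.89 in the remaining cells. The others given here had ratios nearer to 0 in the remaining cells than in the members. They were chosen by their ratio in members, and that choice alone can bring this about. Timp1, the gene of a metalloprotease inhibitor, had -1.56 against -0.74. Ppbp, with UMIs in 47 of 248 Fcmr+/+ and 56 of 470 Fcmr-/- members, had -1.45 against -0.60. Ltc4s, the gene of leukotriene C4 synthase, had -2.01 against -0.67, Gadd45g, a stress response gene, -1.56 against -0.46, and Trf, the transferrin gene, -1.45 against -0.53. Lyz1, a lysozyme gene, had 23.2 CPM in Fcmr-/- and 170.5 in Fcmr+/+ members, a ratio of -2.83 against -0.70, but 1 Fcmr+/+ member held 372 of its 497 UMIs.

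Inflammatory cytokine genes had a list median of the log2 ratio between genotypes of 0.04 in members and -0.22 in the remaining cells. Tnf had a log2 ratio of Fcmr-/- to Fcmr+/+ of 0.18 in members and -1.12 in the remaining cells, Tnfsf9, the gene of the 4-1BB ligand, of -0.14 and -1.14, and Il1a of 0.57 and -0.31. Il10 was lower in Fcmr-/- in both, with -1.20 and -1.24, and Cxcl3 was higher in both, with 0.82 and 0.88. MHC class II genes had a list median of -0.30 in members and 0.55 in the remaining cells. Type I interferon response genes had medians of 0.86 and 0.72 and type II genes of 1.34 and 1.49, above 0 in both groups of cells.

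**Figure D5:**
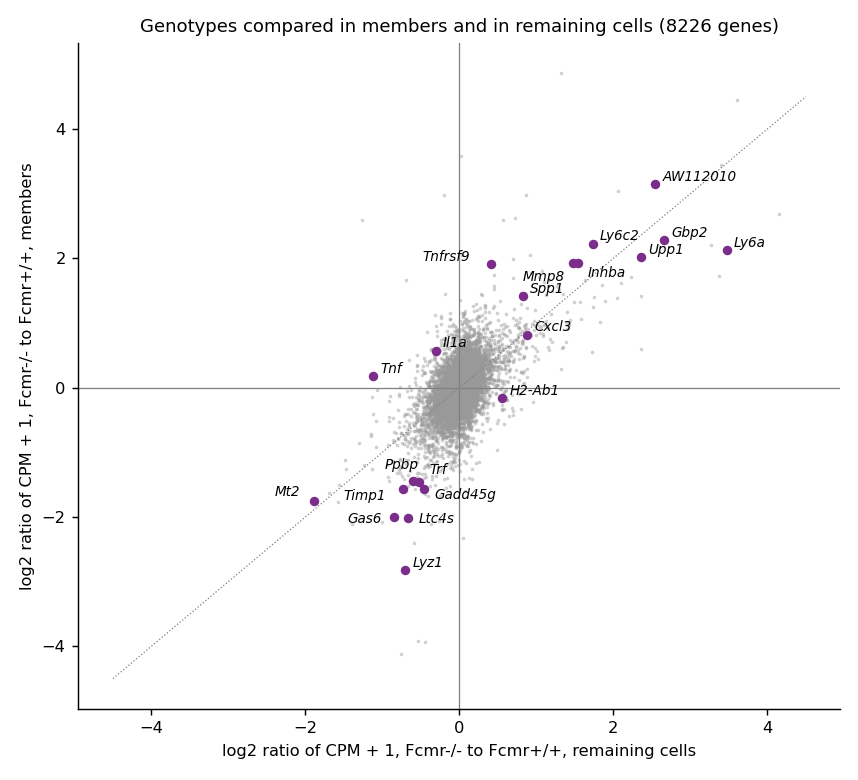
Log2 ratio of CPM plus 1, Fcmr-/- to Fcmr+/+, in the remaining cells (x) and in the members (y) for 8226 genes as grey points, with named genes in purple and equality as a dotted line. Tnfrsf9, Tnf and Il1a lie above the dotted line and Lyz1, Ltc4s and H2-Ab1 below it.

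Cells taken in the same way by other genes overlapped the members in part. The top 5% by Nos2, Irg1 and Inhba, genes of strongly activated macrophages, shared 35 cells with the Fcmr+/+ members (14.1% of members, 35.7% of those cells) and 185 with the Fcmr-/- members (39.4% and 29.8%). The top 5% by 9 hypoxia genes held 12.9% of Fcmr+/+ and 17.02% of Fcmr-/- members (12.4% and 17.4% of that set). Those by 6 monocyte genes held 10.1% and 9.15% (11.01% and 8.76% of the set), and those by 8 immediate-early genes 18.95% and 4.47% (10.4% and 7.87% of the set). The sets were of unequal size in the libraries, the Nos2 set being 1.54% of Fcmr+/+ and 7.75% of Fcmr-/- cells, the hypoxic set 4.06% and 5.75%, the monocyte set 3.57% and 6.14% and the immediate-early set 7.10% and 3.34%. Inflammatory cytokine medians against the rest of each library were 0.98 and 1.60 in the Nos2 set, which Inhba helped to choose, -0.42 and 0.78 in the hypoxic set, 0.03 and 0.27 in the monocyte set and 0.48 and 0.58 in the immediate-early set, beside 1.55 and 1.86 in the members. Cxcl3, which was in none of the scores, had log2 ratios of 3.03 and 2.33 in the Nos2 set, 2.01 and 1.62 in the hypoxic set, 0.76 and 0.51 in the monocyte set and 0.76 and 0.09 in the immediate-early set. Resident-type and clearance medians were -1.40 and -1.18 in the Nos2 set and -1.52 and -1.56 in the hypoxic set. They were -0.92 and -0.81 in the monocyte set and 0.04 and 0.23 in the immediate-early set, beside -1.14 and -1.53 in the members. Hypoxia and glycolysis medians were 0.88 and 0.75 in the Nos2 set and 0.16 and 0.36 in the monocyte set. In the immediate-early set they were 0.07 and -0.07, beside 0.67 and 0.67 in the members. The hypoxic set, which such genes chose, had 1.30 and 1.24. Tumor macrophage activation genes at least 2-fold higher in both libraries numbered 11 in the Nos2 set, which 2 of them helped to choose, and 10 in the hypoxic set. They numbered 3 in the monocyte set and 0 in the immediate-early set, beside 8 in the members. Medians of the mRNA decay and MAP kinase list were 0.83 and 0.71 in the Nos2 set and 0.79 and 0.78 in the immediate-early set. The hypoxic set had 0.40 and 0.53 and the monocyte set 0.49 and 0.48, beside 0.78 and 0.74 in the members. Further NF-kB target genes had medians of 0.93 and 0.86 in the Nos2 set, beside 1.07 and 1.04 in the members. In the other sets these ran from -0.11 to 0.54. Cell cycle medians were below 0 in these sets, at -2.83 and -1.89 in the Nos2 set, -2.39 and -2.58 in the hypoxic set, -2.61 and -2.45 in the monocyte set and -0.92 and -0.998 in the immediate-early set, and none of these differences was tested.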

How the data were processed

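Per the labels and the study's methods, the authors sorted MerTk+ CD64+ cells from B16 tumors, made 10X Genomics 3′ libraries and aligned the reads with Cell Ranger to GRCm38. The deposited values are UMI counts per gene and cell, 1 matrix per genotype, with 27998 genes listed, of which 65 entries sharing a symbol were dropped. The counts are taken at the 3′ end, so that levels are shares of UMIs.

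Counts were summed over the cells of a group, divided by the group's total UMIs and given as CPM, and ratios were formed after adding 1 CPM. No doublet caller was run. The limit of 7000 genes was kept, and leaving out the 718 cells with the most UMIs removed 0 members. Python 3.11.15, numpy 2.4.6, scipy 1.17.1, pandas 2.3.3 and matplotlib 3.10.9 were used, and the sums and calls were tested on simulated data. With 1 library per genotype there is no replicate, so intervals cover counting error only and no p-value was computed.

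The members and the gene lists were chosen with earlier results of these data known. Named genes were the score and sort genes, the 20 highest and 12 lowest genes by the smaller of the ratios in the libraries (at least 50 CPM in the higher group), the full interleukin-1, neutrophil chemokine and prostaglandin lists, the extreme and most abundant members of the other lists, and the 8 highest and 8 lowest genes between genotypes. Genes withheld from the text under this rule are not reported here. Other list members are named for their role, after their values were seen. Alternatives changed the cutoff, the score, the cells left out, the depth, the pseudocount, the filter and the scaling.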

Additional observations from a re-analysis of the deposited data

Results flagged for a closer look

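Genes whose ratio of members to remaining cells passed 2-fold in opposite directions in the libraries were looked for among the genes counted, and 2 were found. Ifnb1, the gene of interferon beta, had a log2 ratio of -2.77 in Fcmr+/+ and 1.09 in Fcmr-/-. In Fcmr+/+ members it had 2 UMIs, 0.686 CPM (0.0831 to 2.48), against 10.5 CPM in the remaining cells, where 1321 UMIs lay in 174 of 6104 cells. In Fcmr-/- members it had 40 UMIs in 7 cells, 9.17 CPM, against 3.78 CPM in the remaining cells.

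Lyz1, a lysozyme gene, had a log2 ratio of 1.08 in Fcmr+/+ and -1.05 in Fcmr-/-. A single Fcmr+/+ member held 372 of the 497 Lyz1 UMIs of that group. The near-identical gene Lyz2 makes its assignment uncertain. Neither difference between the libraries was tested, since each rests on 1 library per genotype.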

How the results depend on the processing

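Precision is limited by 1 library per genotype and by the members' totals of 2915062 and 4361422 UMIs. No paired analysis was possible because each genotype had 1 library and no test was made. The Fcmr-/- share of members (65.5%) was 69.2% with equal weight of the 4 genes and 59.9% without cells with neutrophil UMIs, where Fcmr-/- cells were 53.4% of the library cells left. It has no value where each library's own top 5% were taken. Genes higher in members in both libraries (172) numbered 106 with 10 CPM added and 136 at a minimum of 20 CPM. Centred on the median they numbered 311. With the remaining cells weighted to the members' depth, an alternative chosen after seeing the data, they numbered 102. Genes lower in both (422) numbered 278 for the top 10% of cells, 280 with equal weight, 108 with 10 CPM added, 163 at a minimum of 20 CPM, 265 centred and 180 depth-weighted. Genes higher in Fcmr-/- members (122) numbered 306 for the top 2.5%, 263 thinned to 5000 UMIs, 37 with 10 CPM added, 56 at 20 CPM and 229 with no filter. Genes lower in Fcmr-/- members (144) numbered 257 for the top 2.5%, 84 for the top 10%, 257 thinned, 30 with 10 CPM added, 51 at 20 CPM and 313 with no filter. A larger value added and a higher minimum leave fewer genes past 2-fold by construction, and the cause of the other moves was not tested.

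Log2 ratios of named genes turned around in 13 cases. In Fcmr-/-, Cxcl5 (1.11) was -1.18 for the top 2.5%. S100a9 in Fcmr-/- (-2.17) was 0.17 without Il1b in the score, 0.18 without Cxcl1, 0.21 without Ptgs2 and 0.17 without barcodes in both libraries. Lyz1 in Fcmr+/+ (1.08) was -0.83 without Cxcl2, -0.70 without cells with neutrophil UMIs and -0.88 without cells with UMIs of other types. Without Cxcl2, Ccr7 and Cd209a in Fcmr-/- were 0.38 and 0.17. Mmp8 in Fcmr+/+ was -0.22 without the cells with neutrophil UMIs, a set it helped to choose, and Cd3d and Gzmb in Fcmr-/- were 0.47 and 0.18 without cells of other types. List medians were followed under all alternatives except for the lists of cell type markers, the monocyte list among them. Of those followed 855 stayed on their side of 2-fold, 17 fell within it and 8 passed it. Inflammatory cytokine medians ran from 1.15 to 1.82 in Fcmr+/+ and from 1.39 to 2.18 in Fcmr-/-, and cell cycle medians from -3.37 to -1.56 and from -3.22 to -1.49.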
